A study of Mus musculus with 15 samples.

Results

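The comparison described here sets mouse embryonic fibroblasts that lack both p27 and stathmin (p27_stathmin_DKO, 3 arrays) against fibroblasts that lack p27 alone (p27_KO1, 4 arrays). These 7 arrays, chosen by the genotype in the labels, are part of a set of 15. Both groups lack p27 per the labels, so their genotypes differ by loss of stathmin in cells where p27 is already absent. The other 8 arrays, 4 of stathmin knock-out (stathmin_KO2) and 4 of wild type, show the same loss in cells that keep p27. All cells had a C57B6 background, came from embryos at 13.5 days after conception, were at passage 3 and were collected at high confluence after serum starvation for 24 h. Replicates are described as biological, without a statement of how the alleles were made or which embryo or culture each array came from. Each array paired a sample in the red dye with reference RNA from pooled fibroblasts in the green dye, with no dye swap, so a value is a log2 ratio of sample over reference.

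Stathmin, made from Stmn1, binds tubulin dimers and destabilises microtubules, and its activity is switched off by phosphorylation when cells enter mitosis. p27, made from Cdkn1b, inhibits cyclin-dependent kinases, accumulates in cells that stop dividing and is also known to bind stathmin. The title of the series concerns a role of p27 in proliferation that does not depend on these kinases, and cells without both genes are a way to ask what stathmin does once p27 is gone.

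On each of the 7 arrays between 61.6 and 78.4% of spots had a sample signal well above background, and 18703 genes could be tested. All 14 fibroblast marker genes were well above background on all 7 arrays. Arrays of 1 genotype were no more alike than others, with a mean correlation of 0.034 over 9 pairs within a genotype and 0.135 over 12 pairs between genotypes. Array p27 knock-out 2 stood apart, with correlations to the other 6 arrays of -0.25 to 0.01, so results are also given without it. Xist, the RNA of the inactive X chromosome, was high on p27 knock-out 2 and double knock-out 1, at log2 ratios of 1.91 and 0.63. The Y-linked genes Ddx3y, Eif2s3y, Kdm5d and Uty were low on the same arrays. Ddx3y, for example, read -7.24 and -7.48 there and between 0.06 and 0.82 on the other 5 arrays. Each group thus held an array with high Xist and low Y-linked genes. The mean of 5 sex-linked markers, which mixes Xist with these Y-linked genes, was -3.46 and -3.83 there. On the other 5 arrays it lay between -0.18 and 0.16. Double and p27 knock-out arrays shared 3 slides. Because a genotype always had the same place on a slide, the effects of place and genotype cannot be told apart.

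The dimmer of the 2 Stmn1 probes fell on every double knock-out array. Stmn1 lies on chromosome 4 at 134468320 to 134473843 (GRCm38.p6). This probe read 0.69, 0.41, 1.49 and 1.18 on the 4 p27 knock-out arrays and -2.82, -2.68 and -2.80 on the 3 double knock-out arrays. The groups lie far apart, and the double knock-out arrays differ among themselves by less than the p27 knock-out arrays do. The mean was 0.94 ± 0.48 (SD, n = 4) against -2.77 ± 0.08 (SD, n = 3). That is 13.1-fold lower, or -3.71 on the log2 scale (SE 0.208, 95% interval -4.16 to -3.26, limma adjusted p = 2.52e-06 over all probes). It was the only probe past an adjusted p of 0.05, 1 of 27692 or 0.00361%. Within slides the difference was -3.51, -4.17 and -3.98. With a variance trend and robust moderation the adjusted p became 0.0569.

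In the raw signal, the dimmer Stmn1 probe read between 20644 and 46325 units in p27 knock-out and between 2024 and 2153 in double knock-out. The reference channel of the same spots stayed between 9406 and 11174 units on all 7 arrays. The probe was still well above background on 3 of 3 double knock-out arrays. The brighter Stmn1 probe showed no such drop. It read -0.06, -0.64, 0.62 and 0.80 in p27 knock-out and -0.04, -0.28 and -0.41 in double knock-out, so the groups overlap (log2 difference -0.42, SE 0.315, adjusted p = 1 over all probes). Its raw sample signal was 91226 to 229281 units in p27 knock-out and 105561 to 125816 units in double knock-out. Which part of the transcript each probe reads is not given in the sources used here.

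Other stathmin family members are known mainly from neurons. Stmn4 read -1.37, -1.99, -0.69 and -0.64 in p27 knock-out and -0.14, 0.17 and 1.57 in double knock-out, so every double knock-out array lay above every p27 knock-out array. Its log2 difference was 1.71 (SE 0.568, unadjusted p = 0.00988, adjusted p = 1). Stmn2 went the other way, at 0.61, 2.43, -0.48 and -0.72 against -1.47, -0.76 and -1.93. All 3 double knock-out arrays lay below the lowest p27 knock-out array, double knock-out 2 only just, and the log2 difference was -1.85 (SE 0.674, unadjusted p = 0.0166, adjusted p = 1). Cdkn1b had 1 tested probe, which read -0.15, -0.17, 0.05 and -1.10 in p27 knock-out and 0.19, -1.36 and -1.09 in double knock-out; the groups overlap (log2 difference -0.41, SE 0.395, adjusted p = 1). The same probe read 0.93, -0.22, 0.08 and 0.08 in wild type, which overlaps p27 knock-out, so it does not separate the genotypes. Which part of Cdkn1b the knock-out removes is not given in the sources used here, so this probe does not check the label.

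**Figure D1:**
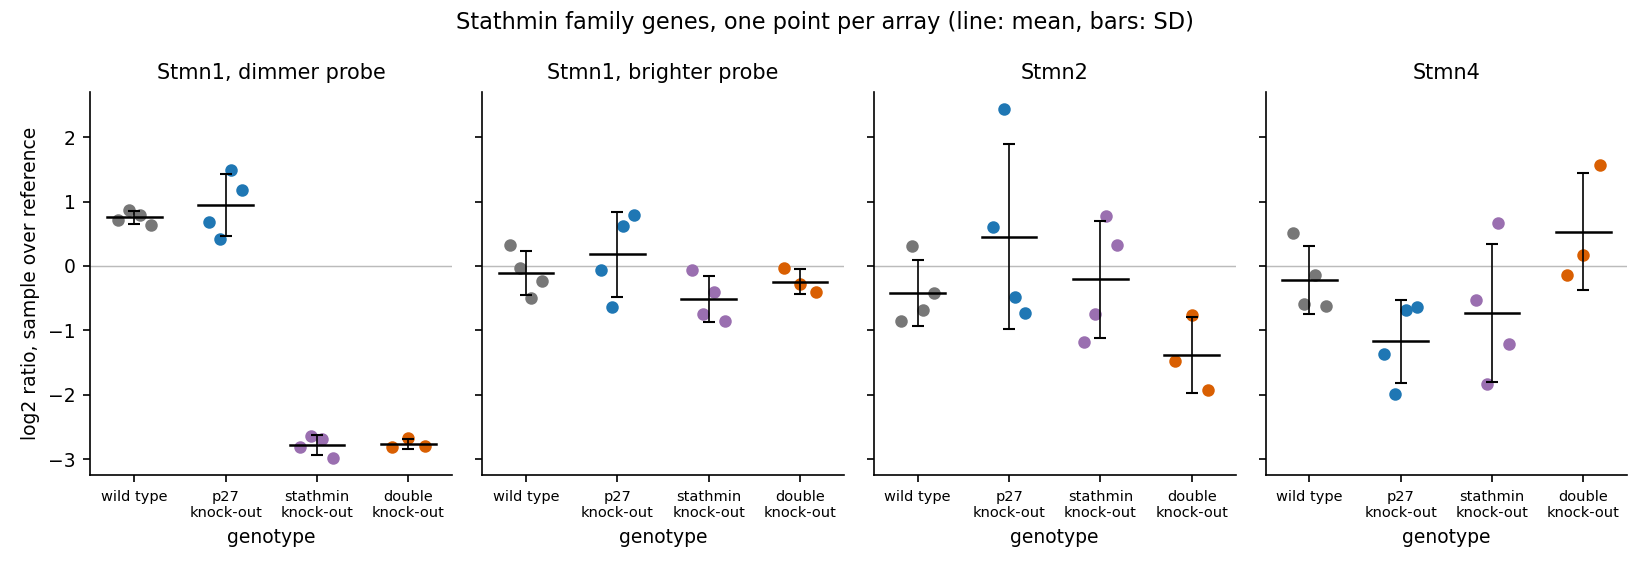
Log2 ratio of sample over reference (y axis) for both Stmn1 probes, Stmn2 and Stmn4 in the 4 genotypes (x axis), 1 point per array with the mean and SD. In double knock-out the dimmer Stmn1 probe lies between -2.82 and -2.68 and in p27 knock-out above 0, while the brighter probe overlaps between them.

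At the level of genes, where the brightest tested probe stands for each gene, 0 of 18703 genes (0%) passed an adjusted p of 0.05 between double and p27 knock-out in limma. An unadjusted p under 0.05 was reached by 562 genes or 3%, of which 287 (1.53%) lay higher and 275 (1.47%) lower in double knock-out. Groups that do not overlap were found for 577 of 18342 genes measured on all 7 arrays (3.15%), 256 higher (1.4%) and 321 lower (1.75%). The median 95% interval of a gene reached 0.52 to either side on the log2 scale. This interval is not adjusted for the number of genes, and many larger differences were not called either. The genes described next are those of smallest unadjusted p in each direction, 12 higher and 12 lower, among genes with a symbol and a value on all 7 arrays. Since p picked them, their separation is a description and no support.

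Rpl11, a protein of the large ribosomal subunit that binds and inhibits the p53 regulator Mdm2, had the smallest p of all genes. Its ratio was 1.60, 1.76, 1.60 and 1.31 in p27 knock-out and 0.27, -0.01 and -0.20 in double knock-out. The lowest p27 knock-out array lies more than 1 log2 unit above the highest double knock-out array. The log2 difference was -1.55 (SE 0.212, 95% interval -2.01 to -1.09, limma adjusted p = 0.0979), and it was -1.33, -1.61 and -1.51 within slides. With the slide as a block the adjusted p was 0.00656, and with the replicate number as a block 0.00297, so the call depends on the model. With only the 7 arrays it was 0.827, and without any 1 of the 7 arrays it was 0.16 or more. Rpl11 was also not called with the sample channel alone or with the mean of its probes, where it differed by -0.67. Rpl11 also differed in the reference dye. The raw reference signal ran from 64582 to 104246 units in p27 knock-out and from 159938 to 204682 units in double knock-out, although the reference is meant to be the same RNA on every array. The sample channel alone differed by -0.49 and the reference channel by 1.05 on the log2 scale. The sample spot was saturated on 1 p27 knock-out array, so the sample-channel difference may be understated. A dimmer Rpl11 probe differed by 0.21 (SE 0.509).

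Among the genes higher in double knock-out, Gabra4, a GABA receptor subunit, read -0.53, -1.30, -0.62 and -0.59 in p27 knock-out and 0.87, 0.48 and 0.72 in double knock-out (log2 difference 1.45, SE 0.252, limma adjusted p = 0.592). All 3 double knock-out arrays lay above 0 and all 4 p27 knock-out arrays below it, though on 1 of the 4 the signal was not well above background. Lingo2, a leucine-rich repeat membrane protein of neurons, read -1.44, -3.77, -1.48 and -1.08 against 0.58, 0.39 and 1.44, a log2 difference of 2.75 (SE 0.598). Nexmif, an X-linked gene of neurite extension, read -1.67, -2.71, -1.25 and -0.39 against 1.42, -0.07 and 1.13, a log2 difference of 2.33 (SE 0.597). For Lingo2 and Nexmif the lowest value was on p27 knock-out 2. Each of the 24 genes other than Rpl11 and Gabra4 had an adjusted p of 1.

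The neighbouring genes Lce1i and Lce1h, of the late cornified envelope family on chromosome 3, had nearly the same values. Lce1i read -0.89, -2.44, -1.82 and -1.46 in p27 knock-out and -0.03, -0.05 and 1.25 in double knock-out (log2 difference 2.04, SE 0.453). The log2 difference of Lce1h was 1.90 (SE 0.451). Genes of this cluster are close copies, so 1 probe may read several of them. Among the other members, picked here after their values were seen, Lce1e differed by 0.75 (SE 0.22), Lce1f by 1.54 (SE 0.986) and Lce1l by -0.17 (SE 0.112).

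Plat, the tissue plasminogen activator, was read by 3 probes whose log2 differences all lay above 0, at 0.92, 1.30 and 0.78. Its brightest probe read -0.46, -0.84, -0.11 and -0.73 in p27 knock-out and 0.79, 0.02 and 0.35 in double knock-out, with no overlap. Hmga2, a chromatin protein of embryonic mesenchyme, likewise had 3 probes on the same side, at 0.97, 0.79 and 0.80. It read -0.22, -0.51, 0.12 and -0.60 against 0.90, 0.24 and 0.85. Pls3, an actin-bundling plastin, differed by 0.99 (SE 0.262), of which 0.57 lay in the sample channel and -0.43 in the reference channel. The kinase gene Pdik1l differed by 1.38 (SE 0.287), but its other probe by -0.30. Pak7, a p21-activated kinase, differed by 0.81 (SE 0.195) and the complement receptor Cr2 by 0.93 (SE 0.242), with the sample channel well above background on 2 and 1 of the 4 p27 knock-out arrays. The lectin receptor Clec12b was not well above background on any p27 knock-out array and lay at least 1.91-fold higher in double knock-out.

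Among the 12 genes lower in double knock-out was Col6a3, a chain of the microfibril collagen VI. It read 0.40, 1.00, 0.99 and 0.02 in p27 knock-out and -0.61, -0.19 and -0.46 in double knock-out (log2 difference -1.02, SE 0.236). It differed by -0.57 in the sample channel and 0.45 in the reference channel. Notch3, a receptor of the Notch pathway, read 0.73, -0.13, -0.01 and -0.90 against -0.84, -0.88 and -1.75, a log2 difference of -1.08 (SE 0.313), and was the one gene of the 24 whose groups overlapped. Zfp423, a transcription factor of mesenchymal and adipocyte precursors, read 0.32, 0.07, 0.42 and 0.76 against -0.17, -0.07 and -0.32, a log2 difference of -0.58 (SE 0.158). Ptprf, a receptor phosphatase at cell contacts, differed by -0.86 (SE 0.236), and its other probes by -0.05 and -0.86. Gdf1, a ligand of the TGF-beta family, differed by -1.09 (SE 0.312).

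Map7d3, also among the 12, encodes a microtubule-associated protein. It read 0.26, 0.92, 0.21 and 0.79 in p27 knock-out and -0.63, -0.12 and -0.02 in double knock-out (log2 difference -0.80, SE 0.206; -0.58 on its other probe). No double knock-out array reached the lowest p27 knock-out array. Dzip1, a protein of the ciliary base, differed by -0.93 (SE 0.241), and by -0.60 and -0.69 on its other probes. Clmn, a membrane protein with an actin-binding domain, differed by -0.97 (SE 0.2), and the transporter gene Abca2 by -0.69 (SE 0.166) on its brightest probe and by -0.69 on the other. The phosphatase gene Lhpp and the repair gene Rad51b differed by -0.55 (SE 0.152) and -0.94 (SE 0.26). For 24 of the 24 genes the difference had the same sign on all 3 shared slides. For the 23 genes whose groups do not overlap this follows from the lack of overlap, so it is no support.

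**Figure D2:**
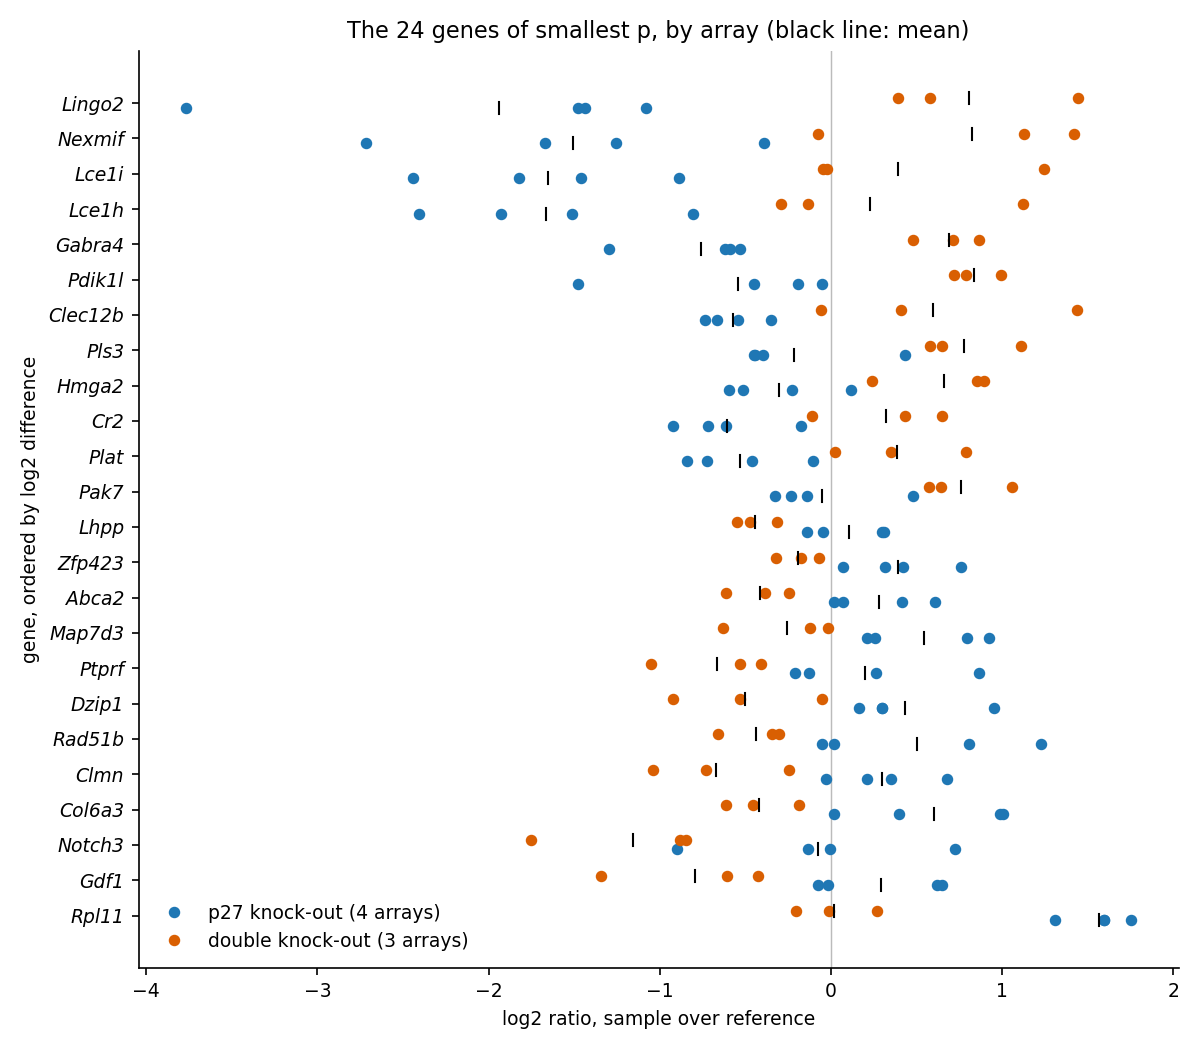
Log2 ratio of sample over reference (x axis) on the 4 p27 knock-out arrays and the 3 double knock-out arrays for the 24 genes of smallest unadjusted p (y axis); black lines are means. The groups do not overlap for 23 of the 24, and Rpl11 has the tightest groups for the size of its difference.

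The same loss of stathmin was compared in cells that keep p27. Between stathmin knock-out and wild type, the dimmer Stmn1 probe differed by -3.54 (SE 0.192, limma adjusted p = 1.72e-06 over all probes), with a difference between the 2 comparisons of -0.17 (SE 0.283, adjusted p = 0.905). Limma called 1 of 18688 genes there (0.00535%), namely Rpl11 at an adjusted p of 0.0178. That call was lost in 5 refits, each lacking 1 array, namely wild type 1, 2 or 3, or else number 2 or 3 of the stathmin knock-out arrays. In all, 888 genes had an unadjusted p under 0.05 (4.75%). The difference between the 2 stathmin effects was called for 0 of 18681 genes (0%), with 1374 at an unadjusted p under 0.05 (7.36%). Of the 24 genes, 22 had the opposite sign in stathmin knock-out against wild type, and for 22 the difference between the effects had an unadjusted p under 0.05. Their small p in double against p27 knock-out enters that difference, so these counts are a description and no support.

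Gabra4 had the smallest p of the difference between the effects among the 24 genes. Its log2 difference was 1.45 without p27 and -0.86 with it (difference between effects adjusted p = 0.243). Lce1i differed by 2.04 without p27 and by -1.65 with it, and Lce1h by 1.90 and -1.66. For Col6a3 the values were -1.02 and 0.15, for Plat 0.92 and -0.15, and for Zfp423 -0.58 and 0.02. Rpl11, at -1.55 and -1.67, and Pdik1l, at 1.38 and 1.36, were the 2 genes that lay on the same side in both comparisons, with an unadjusted p of the difference of 0.676 and 0.96. These values are from the brightest probes. The other tested probe of each gene went the opposite way in both comparisons. It differed by 0.21 and 0.51 for Rpl11, and by -0.30 and -0.56 for Pdik1l.

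Across 18681 genes the 2 stathmin effects, which share no array, correlated at r = -0.48, and 36.7% of genes had the same sign in both. The points share the 4 slides, the reference RNA and, within a comparison, every array. This value rests on few arrays: r was -0.15 without p27 knock-out 2 and -0.04 without the 5 arrays of higher Xist. Of those 5, wild type 1 kept its Y-linked genes, with Ddx3y at -0.26 against -7.48 to -7.22 on the rest. Leaving out each of the 15 arrays in turn gave r from -0.57 to -0.15, and within the 3 shared slides it was -0.02, -0.04 and -0.15. These subsets were chosen after the data were seen. The part of p27 knock-out 2 in the opposite signs of single genes was not tested.

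**Figure D3:**
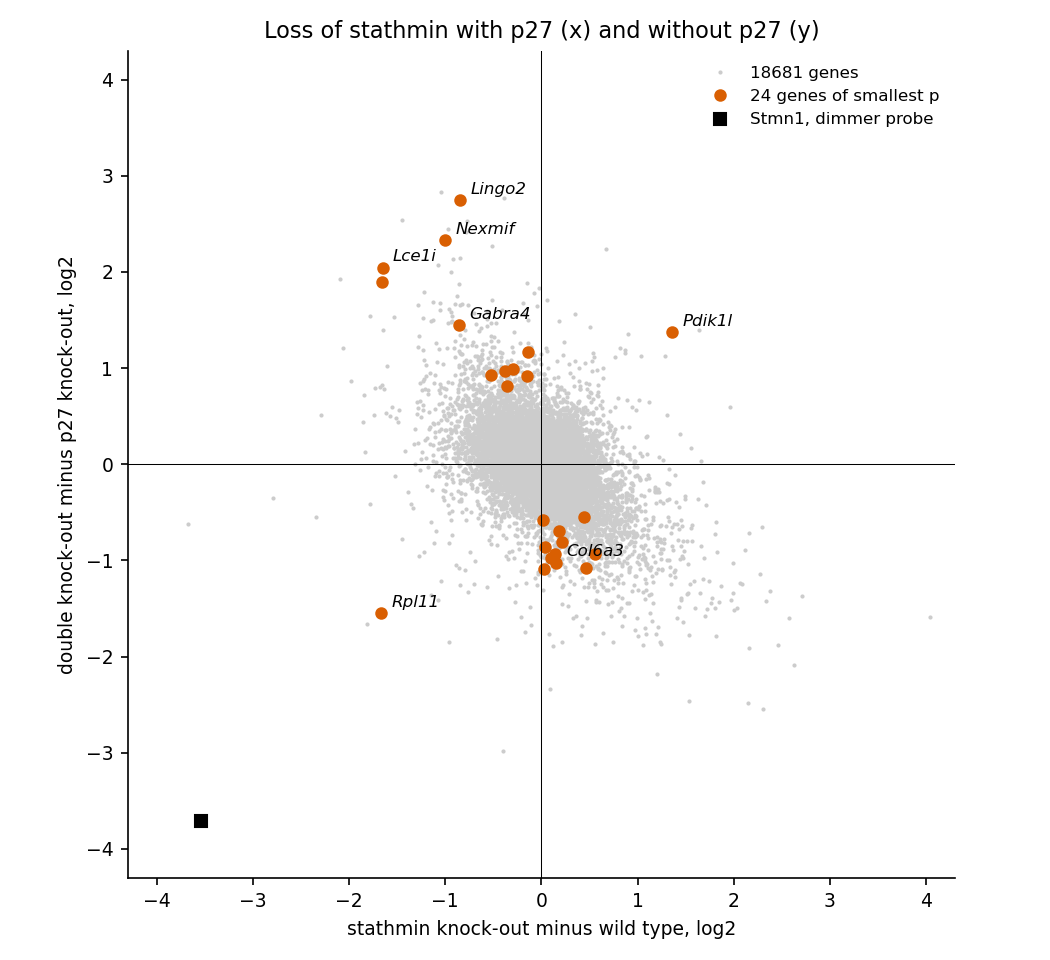
Log2 difference of stathmin knock-out minus wild type (x axis) against double knock-out minus p27 knock-out (y axis) for 18681 genes; coloured points are the 24 genes of smallest p and the square is the dimmer Stmn1 probe. Rpl11 and Pdik1l lie in the quadrants of equal sign and the other 22 coloured genes in those of opposite sign.

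Rpl11 and Pdik1l lie on chromosome 4 close to Stmn1. Within 5 Mb of Stmn1, 9 of 153 tested genes had an unadjusted p under 0.05 (5.88%, against 3% of all genes), 3 higher and 6 lower, and 0 were called. Between 5 and 10 Mb the share was 0.917%, and between 10 and 20 Mb it was 3.72%. Around Cdkn1b, which is knocked out in both groups per the labels, it was 1 of 51 genes within 5 Mb (1.96%). In stathmin knock-out against wild type, 13 of 152 genes within 5 Mb of Stmn1 had an unadjusted p under 0.05 (8.55%, against 4.75% of all), and 3 had one in both comparisons with the same sign.

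Those 3 were Rpl11, Pdik1l and Mtfr1l, a mitochondrial fission regulator gene. The signs are those of the brightest probes, and the other probes of Rpl11 and Pdik1l lay on the opposite side in both comparisons. Pdik1l starts 0.193 Mb before Stmn1 and read -1.48, -0.19, -0.45 and -0.05 in p27 knock-out and 0.72, 0.99 and 0.79 in double knock-out. The double knock-out values are the tighter group. Mtfr1l read -0.27, -0.63, -0.44 and -0.58 against -0.07, -0.17 and -0.32, a log2 difference of 0.29 (SE 0.133), and 0.39 in stathmin knock-out against wild type, but its other probe differed by -0.03. Tcea3, a transcription elongation factor gene, differed by -1.82 (SE 0.563) and by -1.72 on its other probe, and Cda, for cytidine deaminase, by -1.87 (SE 0.822). Ubxn11 and the ephrin receptor gene Ephb2 differed by -0.58 and -0.47.

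**Figure D4:**
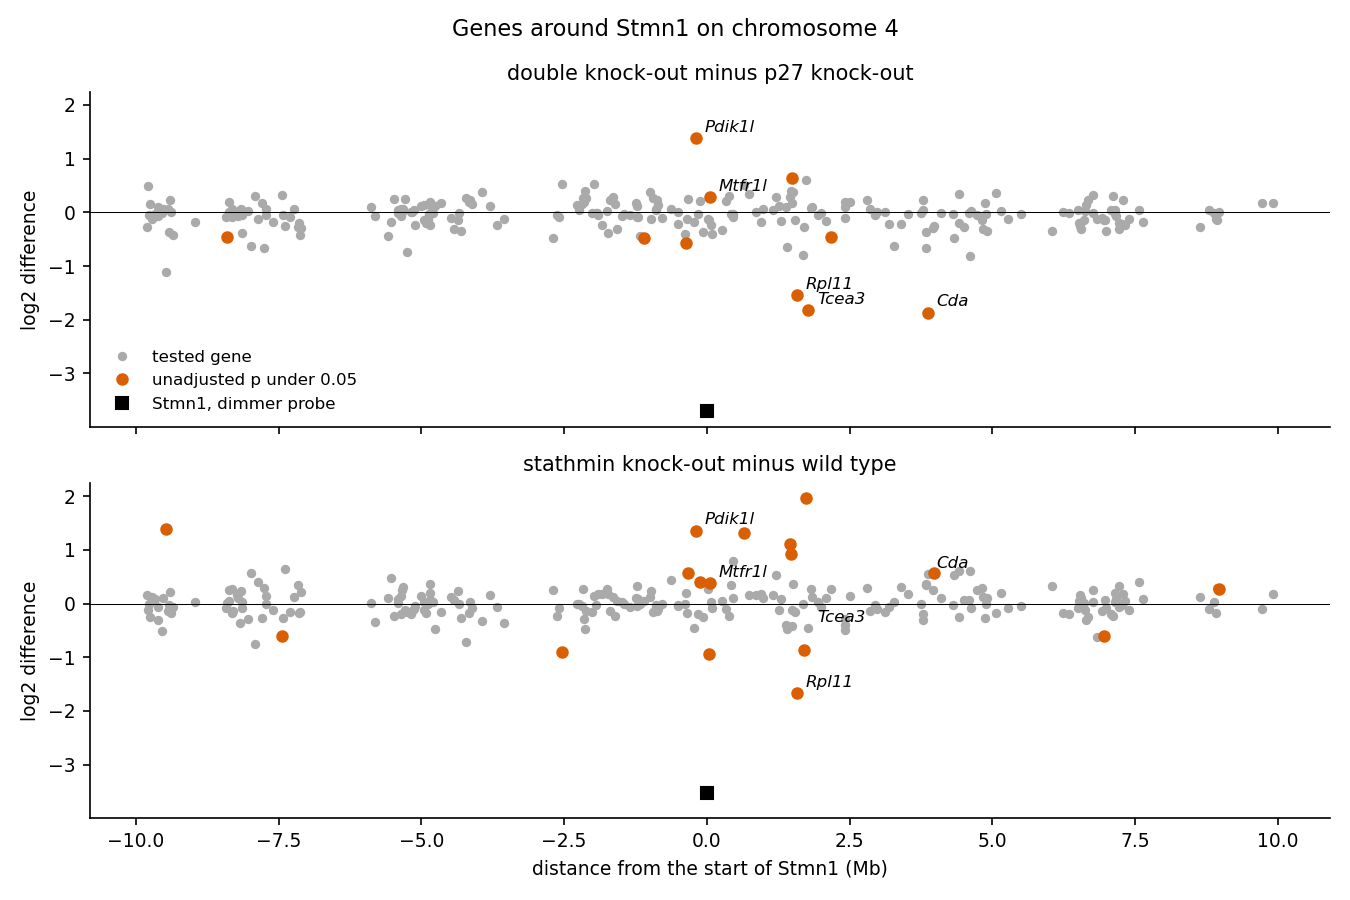
Log2 difference of each tested gene (y axis) by distance from the start of Stmn1 in Mb (x axis), for double minus p27 knock-out (top) and stathmin knock-out minus wild type (bottom). Coloured points have an unadjusted p under 0.05; Rpl11 and Pdik1l lie at -1.55 and 1.38 in the top panel and -1.67 and 1.36 in the bottom one, while Tcea3 and Cda go from -1.82 and -1.87 to -0.46 and 0.55.

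Stathmin acts on tubulin, so tubulin and microtubule genes were examined as groups. Of 16 tubulin genes, 8 lay above 0 and 8 below, with a median of -0.02 against -0.01 over all genes (8908 of 18703 or 47.6% above 0, 9795 or 52.4% below), and 0 reached an unadjusted p of 0.05. Tuba1a, an alpha-tubulin of embryonic cells, read -0.22, -0.56, 1.05 and 0.78 in p27 knock-out and 1.16, 0.78 and 0.90 in double knock-out, which overlap (log2 difference 0.69, SE 0.383, of which 0.32 lay in the sample channel). Of 30 genes for microtubule-associated and tip proteins 14 lay above 0 (median -0.03). Unadjusted p values under 0.05 came from 2 of the 30, both lower (3% of all genes are under 0.05, 1.47% lower). These were Mid1, a microtubule-bound ubiquitin ligase, at -0.45 (SE 0.193) with other probes at 0.48 and -0.18, and Fgd1, a Cdc42 exchange factor, at -0.36 (SE 0.165). Among 19 tubulin-modifying enzymes and folding cofactors, Hdac6, a tubulin deacetylase, was 1 of 19 under 0.05 (3% of all genes are), at -0.34 (SE 0.137).

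Cell-cycle genes were compared because both proteins act on division, although these cells were confluent and starved. Of 11 G1 cyclins and kinases 10 lay above 0 (median 0.38), of 39 DNA replication genes 35 (median 0.22) and of 55 mitosis genes 42 (median 0.12). An unadjusted p under 0.05 came from 1, 0 and 0 of them, and from 3% of all genes. Skp2, the ubiquitin ligase subunit that marks p27 for breakdown, was the 1, at 0.68 (SE 0.302). The mean of the mitosis genes was -0.40, -0.84, 0.74 and 0.49 on the p27 knock-out arrays and 0.18, -0.03 and 0.13 on the double knock-out arrays, so the double knock-out lay inside the p27 knock-out range. Without p27 knock-out 2, 5 of 55 mitosis genes lay above 0 (median -0.19), 22 of 39 replication genes (median 0.02) and 8 of 11 G1 genes (median 0.10). The mitosis median was also below 0 with the slide as a block (-0.10), so these genes have no settled direction. Of 7 inhibitors of cyclin-dependent kinases 2 lay above 0, and 0 had an unadjusted p under 0.05.

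Genes of the extracellular matrix mostly lay below 0 in double minus p27 knock-out. In the list of collagen VI and other fibril-associated collagens, 7 of 10 genes were below 0 (median -0.44). An unadjusted p under 0.05 came from 3, all lower (3% of all genes are under 0.05, 1.47% lower). Besides Col6a3 these were Col6a2, a further collagen VI chain, at -0.63 (SE 0.217) with 0.01 on its other probe, and Col18a1, the source of endostatin, at -0.82 (SE 0.325) with -0.79 on its other probe. The list mean read 0.57, -0.47, -0.49 and -0.12 in p27 knock-out and -0.85, -0.04 and -0.69 in double knock-out, which overlap. Without p27 knock-out 2 all 10 lay below 0 (median -0.47). Leaving out double knock-out 2 moved the median to -0.77 and leaving out p27 knock-out 1 to -0.17.

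Fibrillar collagens and their modifying enzymes lay below 0 for 16 of 21 genes (median -0.30, and -0.16 without p27 knock-out 1), with 0 at an unadjusted p under 0.05. Basement membrane genes lay below 0 for 12 of 15. Of these genes 2 were under 0.05, both lower (3% of all genes are under 0.05, 1.47% lower). These were the laminin chain Lama4 at -0.90 (SE 0.307), with other probes at -0.70 and -0.80, and the nidogen Nid2 at -1.89 (SE 0.806). Nid2 read 0.37, 2.66, -1.17 and -0.09 against -1.60, -0.74 and -2.02, with its highest value on p27 knock-out 2. Of 21 metalloproteinases and inhibitors 18 lay below 0, among them the aggrecanase gene Adamts5 at -1.68 (SE 0.538, and -1.32 on its other probe). Without p27 knock-out 2, 12 of those 21 lay below 0 and the median went from -0.26 to -0.02.

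The plasminogen activator list had 8 of 9 genes above 0 (median 0.37). An unadjusted p under 0.05 came from 2, both higher (3% of all genes are under 0.05, 1.53% higher). Beside Plat this was Tfpi2, a protease inhibitor of the matrix, which read -2.13, -2.79, -0.03 and -1.34 in p27 knock-out and 1.75, -0.42 and 1.29 in double knock-out (log2 difference 2.45, SE 0.716). Double knock-out 2 lay within the p27 knock-out range. The list median was 0.07 without p27 knock-out 4, 0.22 without p27 knock-out 2 or double knock-out 3, and 0.61 without p27 knock-out 1.

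Contractile smooth-muscle genes lay above 0 for 16 of 18 members (median 0.55). Cald1, for the actin-binding caldesmon, was 1 of 18 with an unadjusted p under 0.05 (3% of all genes have one). It differed by 0.95 (SE 0.402) and by 1.05 on its other probe. Tagln, for the actin-binding protein SM22, read 0.66, -3.01, 0.51 and -0.63 in p27 knock-out and 0.43, 1.40 and 1.35 in double knock-out (log2 difference 1.68, SE 0.784, unadjusted p = 0.055). Its sample channel differed by 0.89 and its reference channel by -0.79. For the list, the mean was -1.76 on p27 knock-out 2 and -0.62 to 0.79 on the other p27 knock-out arrays, against -0.21 to 0.67 in double knock-out. Without p27 knock-out 2, 12 of 18 lay above 0 with a median of 0.14, and without p27 knock-out 1 the median was 0.98. Of 19 targets of the mechanical sensors YAP and TAZ 12 lay above 0 (median 0.05, but -0.10 without p27 knock-out 4 and -0.08 without double knock-out 1), and Ankrd1 was the 1 under 0.05 (3% of all genes are). It read -0.15, -3.41, -0.91 and -1.76 against 0.09, 0.10 and 1.35, with no overlap (log2 difference 2.07, SE 0.784). Of 23 focal adhesion and integrin genes 2 were under 0.05, both higher (3% of all genes are under 0.05, 1.53% higher). These were Itga4 at 1.40 (SE 0.575) and Itgb3 at 0.97 (SE 0.445).

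Genes of cholesterol synthesis and targets of its regulator SREBP lay above 0 for 26 of 29 members, with a median of 0.37. An unadjusted p under 0.05 was found for 3, all higher (3% of all genes are under 0.05, 1.53% higher). Scd2, a fatty acid desaturase, read -0.38, -0.19 and -0.03 on 3 p27 knock-out arrays, the value of the fourth being left out as an outlier spot, and 1.11, 1.00 and 1.04 in double knock-out (log2 difference 1.25, SE 0.326, unadjusted p = 0.0023, adjusted p = 1), of which 0.55 lay in the sample channel and -0.70 in the reference channel. Hmgcs1, which makes the precursor of cholesterol synthesis, was measured on 1 p27 knock-out array at -0.27 and on 2 double knock-out arrays at 0.92 and 0.60, so its fitted value of 1.03 rests on 3 arrays. The list mean was -0.33, -0.33, -0.66 and 0.62 in p27 knock-out and 0.13, 0.28 and 0.20 in double knock-out, so p27 knock-out 4 lay above all 3 double knock-out arrays. Without p27 knock-out 3 the median was 0.15 and without p27 knock-out 4 it was 0.63. In stathmin knock-out against wild type the median of this list was -0.44, with 1 of its members above 0.

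Interferon-stimulated genes lay below 0 for all 37 tested members (median -0.80), and MHC class I antigen presentation for 11 of 12 (median -0.71, but -0.23 without p27 knock-out 2 and -0.39 without double knock-out 3), yet 0 of either list had an unadjusted p under 0.05. The interferon mean was -1.76, 0.99, 1.62 and -0.92 on the p27 knock-out arrays and 0.35, -1.16 and -1.75 on the double knock-out arrays. Both groups thus held arrays with high and with low interferon genes, and within slides the difference ran from -2.78 to 2.11. Ifi35, an interferon-induced protein, had the smallest p of the interferon list, at -0.75 (SE 0.421, unadjusted p = 0.0967). In the antigen presentation list the immunoproteasome subunit Psmb9 differed by -1.13 (SE 0.627). Leaving out single arrays moved the interferon median between -1.41 (without p27 knock-out 1) and -0.32 (without p27 knock-out 3, with 9 of 37 above 0). In stathmin knock-out against wild type the interferon median was 1.25, with 36 above 0. Of the genes of hypoxia and glycolysis 30 of 30 lay below 0 (median -0.43), and 1 was under 0.05 (3% of all genes are), Ndrg1, a hypoxia-induced gene, at -0.96 (SE 0.396). Their mean was -0.45, 1.23, 0.67 and -0.57 in p27 knock-out and 0.26, -0.69 and -0.52 in double knock-out, which overlap, and the median was -0.17 without p27 knock-out 2 and -0.75 without double knock-out 1.

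Markers of macrophages and other blood cells varied widely within both genotypes. Their mean was -0.26, 1.87, -2.77 and 0.23 in p27 knock-out and -2.37, -0.24 and 1.28 in double knock-out, and 22 of the 25 were well above background on all 7 arrays. The median difference was -0.26, with 0 of 25 at an unadjusted p under 0.05 (3% of all genes have one). The median became 0.49 without p27 knock-out 2, 0.78 without double knock-out 1, -1.04 without p27 knock-out 3 and -1.10 without double knock-out 3. Inflammatory chemokines and cytokines lay below 0 for 22 of 27 genes, and above 0 for 23 of 27 without p27 knock-out 2. The part of blood cells in the interferon and inflammatory values was not tested, and in bulk RNA fewer cells of a type and less RNA per cell cannot be told apart.

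Immediate-early genes and feedback genes of the ERK pathway lay below 0 for 22 of 28 members (median -0.26). An unadjusted p under 0.05 came from 2, both lower (3% of all genes are under 0.05, 1.47% lower). Without p27 knock-out 1, 15 of 28 lay below 0 (median -0.12), without double knock-out 2, 16 did (median -0.18), and without p27 knock-out 3 or 4 the median was -0.47 or -0.49. Without double knock-out 1 it was -0.47. Ier2, an early-response gene, read 0.40, 1.29, -0.14 and -0.75 in p27 knock-out and -1.07, -1.91 and -1.72 in double knock-out, without overlap (log2 difference -1.77, SE 0.675), but its other probe differed by 0.17. The early-response factor Egr1 differed by -1.84 (SE 0.789). Of 24 Ras proteins, exchange factors and GAPs 14 lay below 0 (median -0.06, but 0.03 without double knock-out 3 and 0.02 without p27 knock-out 1), and 1 was under 0.05 (3% of all genes are). This was Rasa1, an inhibitor of Ras, which read 0.08, -0.07, -0.42 and 0.04 against 0.47, 0.25 and 1.33, higher on all 3 double knock-out arrays (log2 difference 0.77, SE 0.282). Of 28 lysosome and autophagy genes 22 lay below 0 (median -0.21, -0.12 without p27 knock-out 2 and -0.41 without p27 knock-out 3). An unadjusted p under 0.05 came from 3, all lower (3% of all genes are under 0.05, 1.47% lower). Among them were the calcium channel gene Mcoln1 (-0.48, SE 0.196) and the galactosidase gene Glb1 (-0.59, SE 0.263). Other probes of Mcoln1 and Glb1 lay between -0.27 and 0.17.

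Of 36 Hox genes, which pattern the body axis, 23 lay above 0, and Hoxc5 (0.87, SE 0.372) and Hoxd4 (1.21, SE 0.53) were higher and Hoxd10 lower (-0.72, SE 0.311) at an unadjusted p under 0.05. Of all genes 3% reached that threshold. Hoxc5 read -0.16, -1.79, -0.22 and -0.20 in p27 knock-out and 0.06, 0.27 and 0.49 in double knock-out. All 3 double knock-out arrays lay above all p27 knock-out arrays for 4 of the 36 (1.4% of all genes, with 3.15% not overlapping in either direction). The Hox mean was -1.22 on p27 knock-out 2 and -0.34 to 0.05 on the other p27 knock-out arrays. Without p27 knock-out 2 the Hox median went from 0.48 to 0.07, and without p27 knock-out 1 to 0.81. The p53 targets were split, 16 of 26 above 0. Of these targets 3 were under 0.05, all lower (3% of all genes are under 0.05, 1.47% lower). These were Pmaip1, for the death protein Noxa, at -1.85 (SE 0.549) from 1 array of each genotype, Ddb2, a DNA damage recognition gene, at -0.57 (SE 0.218) and the death receptor gene Tnfrsf10b at -0.31 (SE 0.139). Manf, of the unfolded protein response, differed by 0.48 (SE 0.183).

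The growth factor and signalling lists had few members past the unadjusted threshold. Of 25 ligands and receptors of the FGF, PDGF and EGF families 19 lay below 0 (median -0.15, and between -0.33 without p27 knock-out 4 and -0.05 without p27 knock-out 2). An unadjusted p under 0.05 came from 2, both lower (3% of all genes are under 0.05, 1.47% lower). These were Pdgfrb, the receptor of fibroblasts for PDGF, at -0.56 (SE 0.216), and Vegfd, a ligand for lymphatic vessel growth, at -1.01 (SE 0.412). Igfbp3, which binds insulin-like growth factors outside the cell, differed by -1.78 (SE 0.715), with its highest value on p27 knock-out 2, in a list with 8 of 12 below 0 (median -0.36, but 0.00, -0.09 and -0.12 without p27 knock-out 1, p27 knock-out 4 and double knock-out 3). In the Wnt pathway 20 of 31 lay below 0 (median -0.28, but -0.10 without double knock-out 3 and -0.13 without p27 knock-out 1), among them the ligand gene Wnt6 at -0.41 (SE 0.169). Of 20 targets of the oxidative stress factor NRF2 18 lay below 0 (median -0.33, and -0.20 without p27 knock-out 3), and 0 were under 0.05 in limma. Of 70 cytosolic ribosomal protein genes 49 lay below 0 (median -0.10), and Rpl11 was the 1 under 0.05 (3% of all genes are). Without double knock-out 3, 37 of the 70 lay below 0 (median -0.01), and without double knock-out 2, 59 did (median -0.16).

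**Figure D5:**
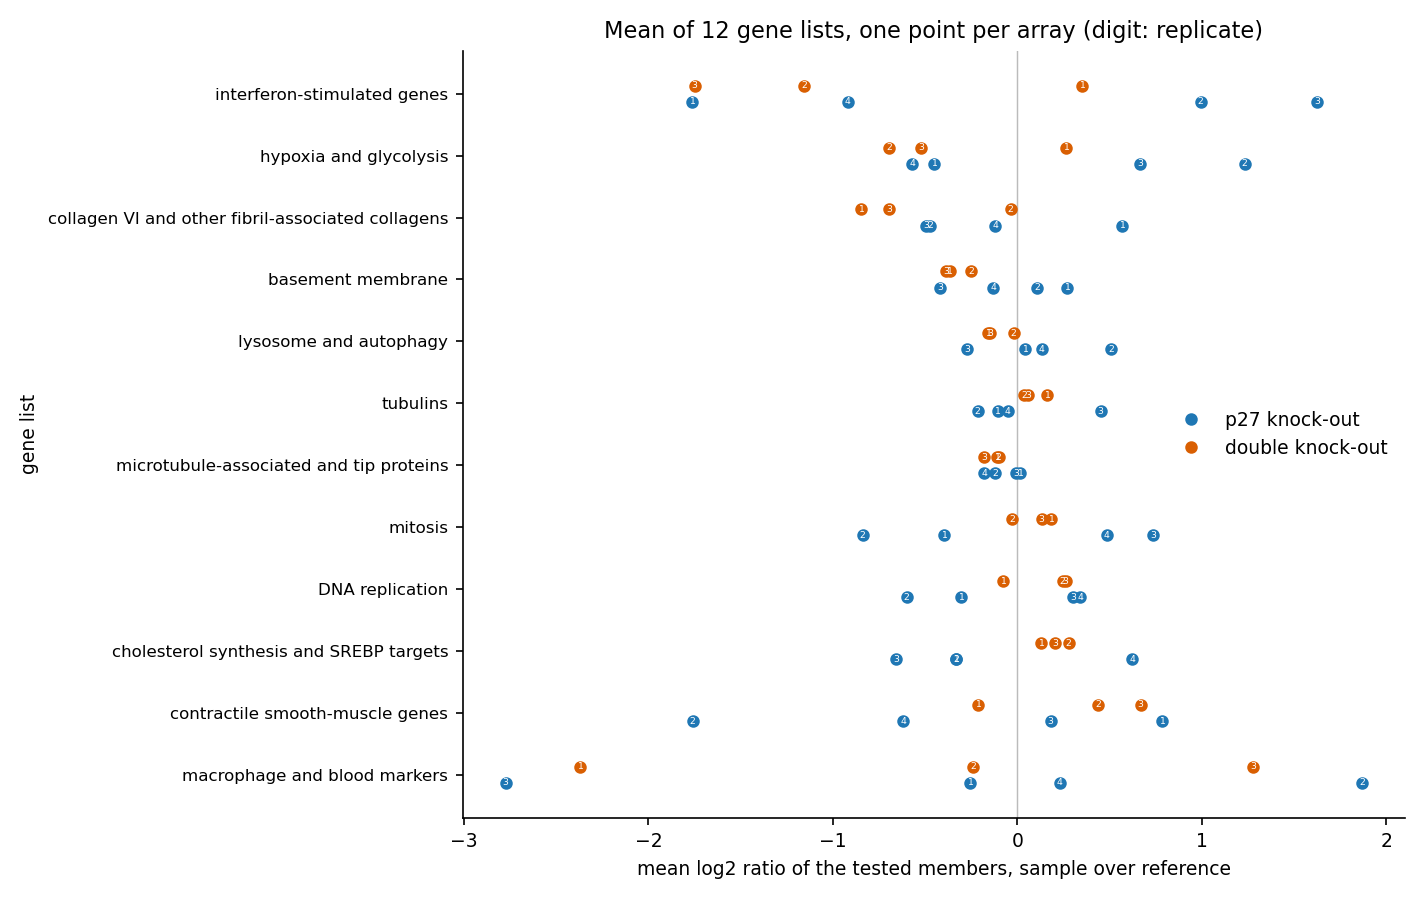
Mean log2 ratio of the tested members (x axis) of 12 gene lists (y axis) on each p27 knock-out and double knock-out array; the digit in a point is the replicate. The ranges of the 2 genotypes overlap in all 12 lists. Array p27 knock-out 2 lies at an end of the p27 knock-out range for mitosis, DNA replication, tubulin, contractile, hypoxia and lysosome genes and for blood markers. This is not particular to it. Array p27 knock-out 3 lies at an end for interferon, collagen VI, basement membrane, lysosome, tubulin, mitosis and cholesterol genes and for blood markers.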

How the data were processed

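Feature Extraction 9.1.3.1 made the deposited scanner files without background subtraction, per the file headers; they give each spot's signal and background as intensity, and the scanner's deposited log10 ratio is dye-normalised red over green. The authors' deposited value table holds log2 ratios whose normalization is not given in the sources used here; per array it correlated with the scanner ratio at 0.821 to 0.936. In limma 3.58.1 (R 4.3.3), background was corrected by normexp (offset 50), ratios were loess-normalised within arrays, outlier spots were left out and spots of a probe averaged. A probe was tested if, in some genotype, at least 3 arrays had a sample signal well above background (27700 probes), and the brightest stood for a gene. Names came from RefSeq (GRCm38.p6) by accession (18206 probes), symbol (4017) or older symbol (1906); 3571 kept the file's name. All 15 arrays were fitted with a mean per genotype, with Benjamini-Hochberg adjustment over all genes or probes, two-sided, called under 0.05. Intervals are at 95%. P-values treat arrays as biological replicates; their number limits the precision. The fit was also run on simulated ratios with noise drawn separately for each gene and array. That noise is simpler than the spread of these arrays, so the run does not measure the error rate here.

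The comparison, the 46 gene lists and the genes named were chosen with earlier results of these data known. Named were both knocked-out genes and the stathmin family, the 12 genes of smallest p in each direction (with 7 values and a symbol that is no clone or predicted gene), up to 4 members of smallest p per list, and genes within 5 Mb of Stmn1 or Cdkn1b at an unadjusted p under 0.05; the text names fewer, some genes are not reported here, and Lce1e, Lce1f and Lce1l were added as examples. Replicate numbers were not taken to pair the arrays: same-numbered double and p27 knock-out arrays had residual correlations of -0.21, 0.03 and -0.23.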

Additional observations from a re-analysis of the deposited data

Results flagged for a closer look

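In the 4 p27 knock-out arrays, 117 values (the genes named and the list means) were examined for 1 array far from the other 3, and 8 were found, 7 of them on p27 knock-out 2; chance gives about 1 in 20. On p27 knock-out 2, Gabra4 read -1.30 against -0.62 to -0.53 on the others, Lingo2 -3.77 against -1.48 to -1.08, and Dzip1 0.95 against 0.17 to 0.30. Gabra4 was well above background on 3 of the 4 arrays, and its raw sample signal was lowest on p27 knock-out 2. Glb1 read 1.02 there against -0.10 to 0.04, Hoxc5 -1.79 against -0.22 to -0.16, and Elavl4, an RNA-binding protein of neurons, -1.34 against -0.27 to -0.21. The mean of the sex-linked markers on that array was -3.46 against -0.18 to 0.16. Pls3 read 0.43 on p27 knock-out 1 against -0.45 to -0.39 on the others.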

How the results depend on the processing

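The count of genes called between double and p27 knock-out went from 0 to 1 in 5 alternatives: Rpl11 with the scanner log ratio (-1.66, adjusted p = 0.0106), the authors' table (-1.73, 0.00896), the slide block (-1.50, 0.00656) and the replicate block (-1.67, 0.00297), and Stmn1 with the mean of its probes (-2.06, 0.0164). The Stmn1 probe was -3.71 with adjusted p = 0.0569 under a variance trend. Without each of the 7 arrays it ran from -3.88 to -3.52, and 0 genes were called each time; 1 was without stathmin knock-out 1 (Rpl11). The difference between the stathmin effects gave 1 gene with array weights (Gabra4) and 0 to 1 without each of the 15 arrays (Hoxa5 without p27 knock-out 1, Fn3krp without stathmin knock-out 4). Stathmin knock-out against wild type gave 0 genes with the sample channel alone, 2 with either block, 10 with array weights, 6 without arrays of higher Xist and 0 to 2 without each of the 15 arrays, 0 in 5 cases (wild type 1, 2 and 3, stathmin knock-out 2 and 3). Leaving out stathmin knock-out and wild-type arrays was added after the data were seen. Genes at an unadjusted p under 0.05 numbered 562, but 1239 with the replicate block, 1020 with array weights, 374 with only the 7 arrays, 304 without p27 knock-out 2 and 216 without double knock-out 3, and 945, 925 and 1021 without p27 knock-out 1, 3 and 4. Median centring gave 315 higher of 486, against 287 of 562. The causes were not tested. Of 2732 recomputed values of genes and lists, 2704 stayed on their side of the threshold and within 1 SD. Among them 0 gene differences changed sign, but 53 list medians did, in 18 of the 46 lists. Some alternatives, such as the variance trend and the fit of only the 7 arrays, cannot change a log2 difference. The genes were mostly named for a small p, and most had an adjusted p far above the threshold. Their steady sign and side of the threshold are therefore no support. The mitosis median went from 0.12 to -0.10 with the slide block, -0.11 with array weights and -0.20 without arrays of higher Xist, and the macrophage and blood median from -0.26 to 1.24 and 1.49 in the last pair. Array weights depend on the order of genes in the fit. The mean of probes could not be applied to a single probe. Dim probes have few measured arrays.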

Other observations

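Of 86 genes with an unadjusted p under 0.05 in both stathmin comparisons, 19 had the same sign in both. Among these, 12 have a place in the RefSeq table, and 5 of the 12 lie on chromosome 8 and 4 on chromosome 4, which hold 5.11% and 6.17% of the tested genes that have a place. This count was made after the values were seen and was not tested. The chromosome 8 genes were Crnde (0.71 without p27 and 0.48 with it), Lpcat2 (1.13 and 1.29), Ciapin1 (-0.48 and -0.47), Ocel1 (-1.22 and -1.04) and 4831440D22Rik (-0.60 and -0.48). On chromosome 4, Efcab7 (1.13 and 1.03) joined Rpl11, Pdik1l and Mtfr1l.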
